A study of Mus musculus with 25 samples.

Results

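CD11b+ conventional dendritic cells (cDC) were sorted from Peyer's patches, the lymphoid follicles of the small intestine, of C57BL/6 mice aged 6 to 8 weeks. The comparison takes in 8 of the 25 arrays of the series. R848 was given by gavage to the mice of 3 of them, 9 h before the patches were taken, and the mice of the other 5 received nothing. The titles of the treated samples also carry the words for an unstimulated animal, and the design text, which states the gavage and the time, was followed here. Both groups were wild type, and each replicate pooled the patches of 42 mice, digested with collagenase, enriched on CD11c beads and sorted. No vehicle-treated group is part of these 8 arrays. Labelled cDNA was made from 2 to 20 ng of RNA and measured on Affymetrix Mouse Gene 1.0 ST arrays. The other 17 arrays hold CD8a+ cDC, cDC with neither marker and macrophages, and the pair of CD8a+ cDC groups is used below for 1 comparison.

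R848, or resiquimod, is a small imidazoquinoline that activates the endosomal Toll-like receptor TLR7 in mice. TLR7 signals through the adaptor MyD88 to NF-kB and to interferon regulatory factors, and the interferon released acts on neighbouring cells. Many antiviral genes carry interferon-stimulated response elements in their promoters, through which interferon induces them. Dendritic cells of the patch dome lie beneath the epithelium that samples gut contents. Once stimulated, dendritic cells typically mature, express the chemokine receptor CCR7 and move to zones where they meet T cells.

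The deposited table lists the treated and the untreated arrays in different row orders, and its row names fit only the treated arrays. Untreated rows were therefore aligned to treated rows by order and level. Of 28939 rows, 24522 (84.7%) got a partner. A second alignment from arrays of other cell types gave the same partner for 21330 of the 21340 rows that both placed. It did not place 2311 of the 17765 genes tested below, and 237 of the 1200 called. For 847 genes with 2 or more aligned probe clusters, log2 differences of the 2 brightest correlated at 0.66. Over the 381 genes where both averaged at least 6, the correlation was 0.81. Of 1001 olfactory-type receptor, keratin-associated, defensin and crystallin genes, which these cells should not use, 5 (0.500%) passed the test. If silent, such genes give no call when paired with a silent neighbour, so the count does not test the rows of expressed genes. Array medians lay between 4.52 and 4.55 in R848 arrays and between 4.49 and 4.59 in untreated arrays, in log2 intensity. Treatment and array set go together in the deposited table and cannot be told apart, and p-values measure the spread between pools. The arrays carry no detection call, so levels of about 4 or less have no firm order and a difference that reaches them may be understated. In sorted cells, fewer cells of one kind and less RNA per cell cannot be told apart.

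The sort label was checked first. Itgam, the gene of CD11b itself, stood at 3.83, 4.43 and 4.45 in R848 arrays, against 7.17, 6.78, 7.47, 6.86 and 6.96 in untreated arrays (log2 intensity). It fell by 2.81 on the log2 scale (SE 0.19, adjusted p = 4.08e-05), and the groups did not overlap. The treated cells' Itgam values were close to those of R848-treated CD8a+ cDC, 4.06 to 4.35, so the label was not borne out by this transcript after treatment. Sirpa and Xcr1 kept the treated CD11b+ arrays apart from R848-treated CD8a+ cDC, while Cd209a and Cxcr3 did not. Cd209a read 3.95 to 4.29 in R848-treated CD11b+ cDC, against 3.81 to 4.10 in R848-treated CD8a+ cDC. For Cxcr3 the values were 4.50 to 5.02 in R848-treated CD11b+ cDC, against 4.41 to 4.96 in R848-treated CD8a+ cDC. Sirpa, a receptor of CD11b+ cDC, measured 9.53 to 9.90 in R848-treated CD11b+ cDC, against 5.42 to 7.08 in R848-treated CD8a+ cDC. Xcr1, the chemokine receptor of CD8a+ cDC, was 3.88 to 3.95 in R848-treated CD11b+ cDC, against 8.34 to 8.84 in R848-treated CD8a+ cDC. Flt3, the growth factor receptor of all cDC, was measured at 9.74, 9.59 and 9.87 in R848 arrays, against 10.32, 10.46, 10.13, 10.18 and 10.14 in untreated arrays, and the class II gene H2-Ab1 at 11.95 to 12.12 against 12.16 to 12.33. Itgax, the gene of CD11c, fell by 1.14 (SE 0.21, adjusted p = 0.00438). Its call ended under 5 of 23 alternatives. Without R848 replicate 1 that difference was -0.89 and no longer reached 2-fold. Bst2, a sort marker that interferon also induces, rose by 1.12 (SE 0.23, adjusted p = 0.00705), and by 0.66 against untreated replicates 4 and 5 alone.

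Across 17765 genes tested with limma, 1200 (6.75%) passed an adjusted p of 0.05 with at least a 2-fold difference, the rule meant below by rose, fell and called. Of these, 500 genes (2.81%) rose and 700 (3.94%) fell after R848, and the median log2 difference of all genes was 0.03. The shares of 2.81% and 3.94% are the background for the list counts below. With cyclic loess 578 genes rose and 550 fell, and with quantile normalization 585 and 583. At least 4-fold changes numbered 73 upward and 81 downward. The arrays of the groups did not overlap for 3648 genes (20.5%) that were higher after R848 and for 2959 (16.7%) that were lower.

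Insl6, Irf7 and Il7r had the steepest rises. Irf7, the regulator that amplifies type I interferon, read 9.10, 8.89 and 8.82 in R848 arrays, against 5.15, 5.00, 4.73, 5.12 and 5.34 in untreated arrays (log2 intensity), a 14.6-fold rise (log2 difference 3.87, SE 0.14, adjusted p = 8.55e-06). All treated values lay above all untreated values. Il7r, a receptor chain shared by interleukin-7 and TSLP, read 10.45, 10.21 and 10.34 in R848 arrays, against 6.55, 7.18, 6.55, 6.23 and 6.18 in untreated arrays (log2 difference 3.79, SE 0.21, adjusted p = 2.38e-05). Tnfrsf4, the OX40 receptor, averaged 9.02 ± 0.54 in R848 arrays and 5.50 ± 0.94 in untreated arrays (SD, n = 3 and 5). Insl6, an insulin-like peptide, showed the largest measured rise of 4.16 (SE 0.30). Next to these came Nudt17, a nudix hydrolase, at 3.77, Rtp4, an interferon-induced receptor transporter, at 3.28, and Castor2, a relative of an arginine sensor, at 3.26. Sema6d, a semaphorin, rose by 3.25, the membrane-bound metalloproteinase Mmp25 by 3.23, the lectin-like ligand Clec2i by 3.17 and the G protein subunit Gnb4 by 3.09. The remaining 4 of the 15 largest rises were Jchain (2.94) and Ms4a1 (2.81), both of the B lineage and taken up below, Ifi209 (2.83), an interferon-induced DNA sensor relative, and Socs2 (2.81), a cytokine signalling inhibitor of mature dendritic cells. Adjusted p-values of these 15 lay between 8.55e-06 and 0.00388. The second alignment did not place the rows of Insl6, Irf7, Nudt17, Tnfrsf4, Castor2, Mmp25, Clec2i and Gnb4, and placed the other 7 at the same partner.

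Hpgd and Anxa1 had the steepest falls. Hpgd, which inactivates prostaglandins, read 3.98, 3.83 and 4.55 in R848 arrays, against 7.59, 8.28, 7.43, 8.85 and 8.19 in untreated arrays, and fell by 3.95 on the log2 scale (SE 0.32, adjusted p = 8.23e-05). Anxa1, the anti-inflammatory annexin, read 4.94, 5.17 and 5.79 in R848 arrays, against 8.60, 8.82, 8.98, 9.26 and 9.31 in untreated arrays (log2 difference -3.69, SE 0.22, adjusted p = 2.47e-05). For both genes all treated values lay far below all untreated values. Pglyrp1, a secreted protein that binds bacterial peptidoglycan, averaged 7.37 ± 0.23 in R848 arrays and 10.80 ± 0.47 in untreated arrays (SD, n = 3 and 5). The phospholipid flippase Atp8b4 fell by 3.38, the delta-catenin Ctnnd2 by 3.19, the signalling regulator Rgs18 by 2.89, the cytochrome Cyp4f16 by 2.89 and the myosin phosphatase inhibitor Ppp1r14a by 2.87. Cfp, properdin of the alternative complement pathway, fell by 2.76. The orphan nuclear receptor Nr4a1, an immediate early gene, fell by 3.05. Alox5ap, Cd209a, Itgam and the lymphocyte genes Gzma and Thy1 complete the 15, and adjusted p-values lay between 1.32e-05 and 0.00241. The second alignment did not place the row of Nr4a1, and placed the others of these 15 at the same partner.

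**Figure D1:**
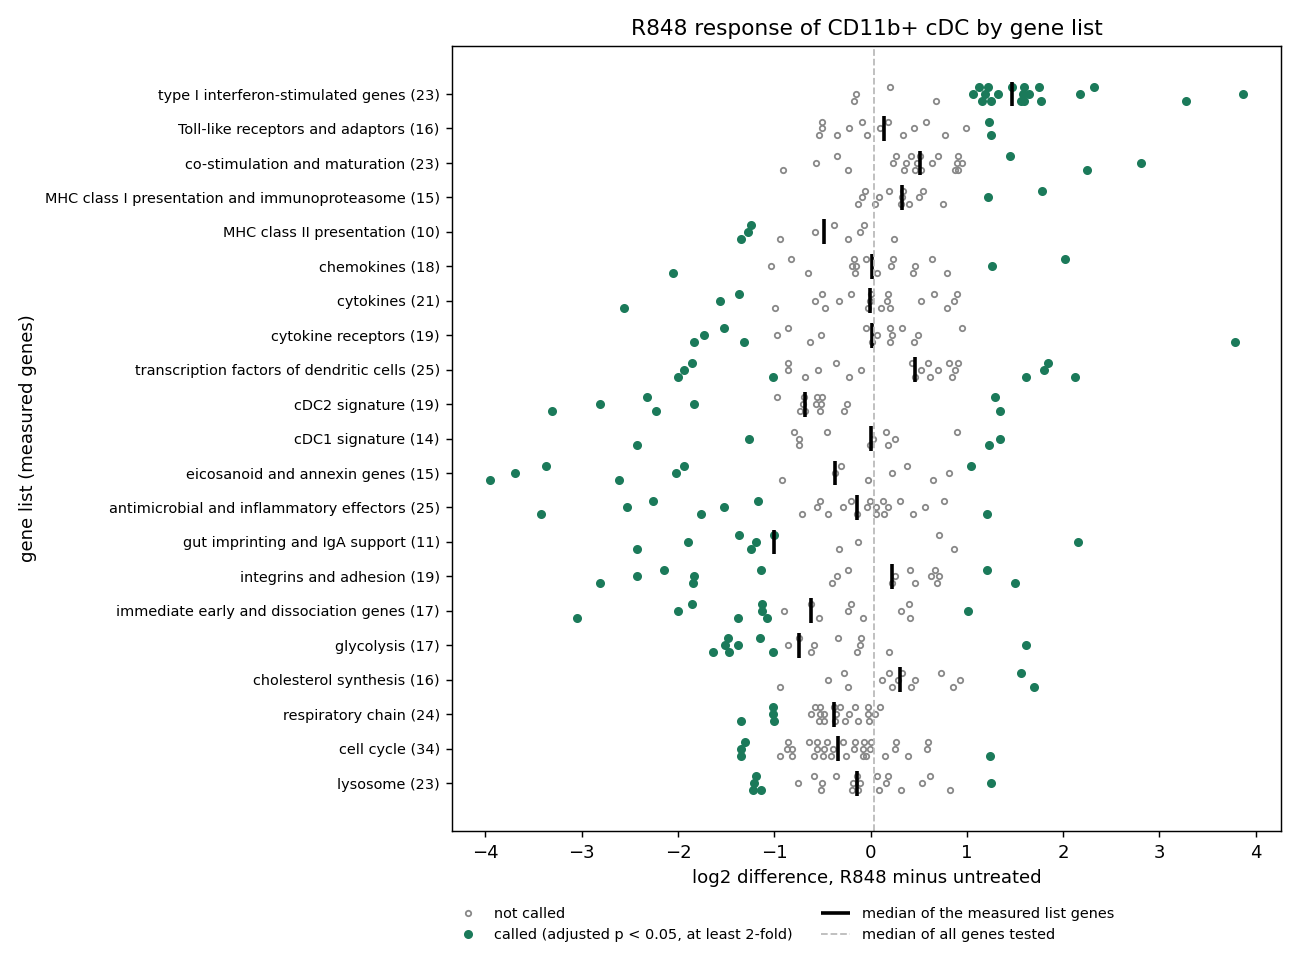
Log2 difference (R848 minus untreated) of each measured gene, by gene list, with called genes filled, others open, the list median as a black bar and the median of all genes as a dashed line. Of the lists shown, the interferon-stimulated genes lie furthest right, with a median of 1.47, while gut imprinting genes have a median of -1.01.

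Most measured interferon-stimulated genes rose. Of 41 on the list, 23 had an aligned row, and 19 of these 23 rose and none fell, where 2.81% of all genes rose and 3.94% fell. Their median difference was 1.47, where that of all genes was 0.03, and the list's mean level was 8.43 to 8.45 in R848 arrays, against 6.83 to 7.20 in untreated arrays. Xaf1, an apoptosis-promoting antiviral gene, read 9.21, 9.06 and 9.34 in R848 arrays, against 6.91, 6.54, 6.87, 6.88 and 7.23 in untreated arrays (log2 difference 2.31, SE 0.14, adjusted p = 3.13e-05). Herc6, the mouse ISG15 ligase, rose by 2.18, Pml, which builds nuclear bodies, by 1.77, the exonuclease Isg20 by 1.75, and Usp18, which removes ISG15 and dampens interferon signalling, by 1.59. The RNA sensors Ddx58 (RIG-I) and Ifih1 (MDA5) rose by 1.47 and 1.19, and the 2-5A synthetases Oas3 and Oas1a by 1.57 and 1.22. Cmpk2 rose by 1.25 but stayed at 4.58 to 4.65 in R848 arrays, against 3.21 to 3.45 in untreated arrays. The 4 that missed the rule were Stat2, Irf9, Ifi35 and Ifitm3. Stat2 was higher in every R848 array, at 0.68 (adjusted p = 9.07e-04), short of 2-fold. Irf9 differed by 0.20, Ifi35 by -0.15 and the entry-blocking Ifitm3 by -0.17 (adjusted p = 0.495, 0.438 and 0.346), and their groups overlapped. Among 5 measured interferons and interferon receptors, 1 fell and none rose. Ifngr1, a chain of the interferon-gamma receptor, read 8.71, 8.84 and 8.90 in R848 arrays, against 10.53, 10.75, 10.79, 11.12 and 11.21 in untreated arrays (log2 difference -2.06, SE 0.16, adjusted p = 6.12e-05). Of 13 interferon-inducible GTPases, 1 was measured, Iigp1, at 0.68 (adjusted p = 0.0225). The Ifit, Mx and Rsad2 genes had no accepted row and are not analysed here.

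**Figure D2:**
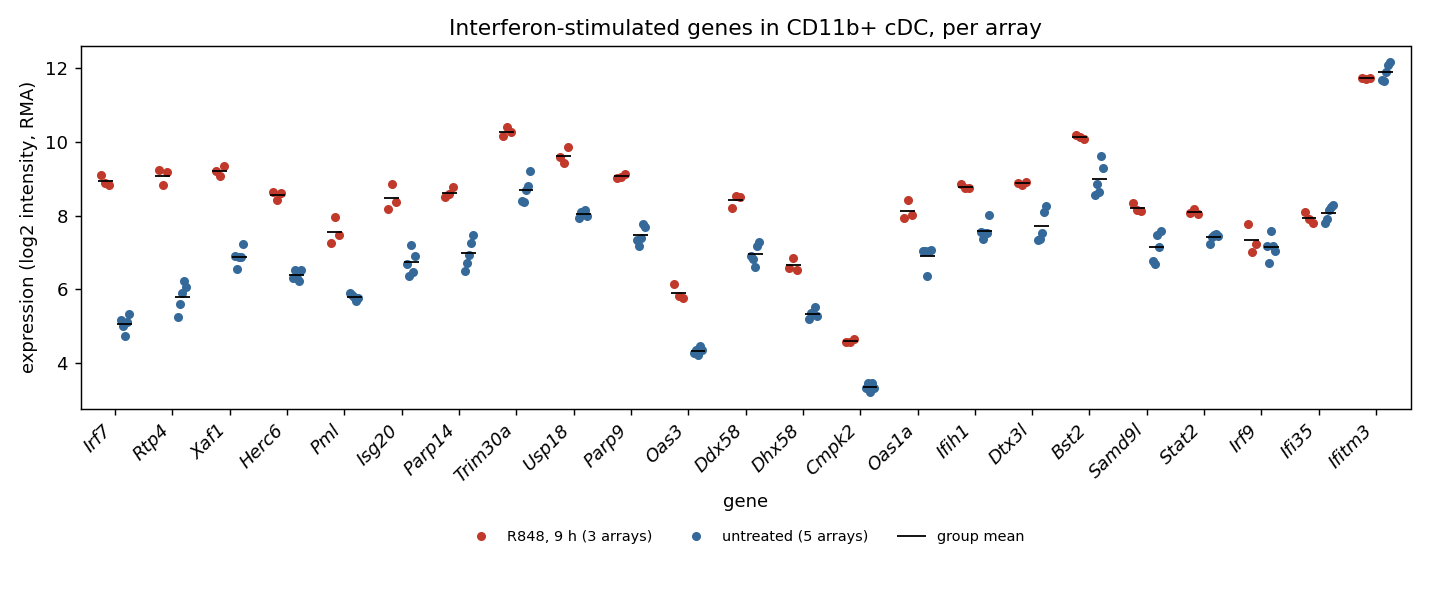
Expression (log2 intensity) of the 23 measured interferon-stimulated genes in each array, R848 left and untreated right, with group means as bars. R848 points lie above all untreated points for 20 genes, and overlap with them for Irf9, Ifi35 and Ifitm3.

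Promoters from RefSeq (GRCm38.p6), 250 bases before to 50 bases after each gene's start, were searched on both strands for the core of the interferon-stimulated response element, which is GAAA, 2 bases of any kind and GAAA again, and for an NF-kB site, which is GGGA, 1 or 2 bases of any kind and TTCC. The response element core stood in 8 of the 18 measured interferon-stimulated genes with a promoter in the table (44.4%) and in 3.44% of all 32851 promoters. It stood in 6.60% of called genes that rose, 4.69% of called genes that fell and 3.70% of all tested genes. The NF-kB site stood in 5.08% of genes that rose, 3.30% of genes that fell and 3.66% of tested genes. Matches of the 2 motifs overlapped in 1 of all promoters. Several list genes with large rises, Rtp4 among them, have no promoter in the table. Others, such as Irf7, Il7r, Xaf1, Herc6 and Pml, have a promoter that holds neither motif. The promoters below belong to the list genes with the largest rises whose promoter holds either motif, to show where it lies. Each is given 5′ to 3′ on the gene's strand, with the motif in capitals: the response element core in Stat4 (chr1:52007990-52008289, plus strand), Trim30a (chr7:104465144-104465443, minus), Oas3 (chr5:120777610-120777909, minus) and Ddx58 (chr4:40239776-40240075, minus), and the NF-kB site in Isg20 (chr7:78913515-78913814, plus).
Stat4: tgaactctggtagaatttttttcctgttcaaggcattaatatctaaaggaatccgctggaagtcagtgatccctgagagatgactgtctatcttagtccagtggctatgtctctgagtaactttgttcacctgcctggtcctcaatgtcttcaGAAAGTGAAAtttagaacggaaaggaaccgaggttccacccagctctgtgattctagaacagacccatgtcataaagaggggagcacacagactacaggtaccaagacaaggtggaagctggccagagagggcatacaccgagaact
Trim30a: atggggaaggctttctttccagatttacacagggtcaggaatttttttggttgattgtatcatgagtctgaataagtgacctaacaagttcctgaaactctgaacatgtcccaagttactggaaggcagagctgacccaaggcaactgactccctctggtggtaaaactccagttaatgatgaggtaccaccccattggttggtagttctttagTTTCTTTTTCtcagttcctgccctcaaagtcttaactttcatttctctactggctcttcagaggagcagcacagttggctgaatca
Oas3: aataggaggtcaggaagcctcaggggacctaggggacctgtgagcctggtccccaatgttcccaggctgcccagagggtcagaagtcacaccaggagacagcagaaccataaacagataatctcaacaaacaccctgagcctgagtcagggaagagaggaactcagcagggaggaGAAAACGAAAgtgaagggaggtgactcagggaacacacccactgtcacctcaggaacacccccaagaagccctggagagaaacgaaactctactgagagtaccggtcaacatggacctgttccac
Ddx58: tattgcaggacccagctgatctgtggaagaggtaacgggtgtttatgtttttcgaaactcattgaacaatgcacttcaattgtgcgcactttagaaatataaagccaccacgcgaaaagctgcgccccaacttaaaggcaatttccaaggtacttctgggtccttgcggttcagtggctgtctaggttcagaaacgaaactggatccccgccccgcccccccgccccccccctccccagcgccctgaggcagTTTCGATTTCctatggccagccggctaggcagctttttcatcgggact
Isg20: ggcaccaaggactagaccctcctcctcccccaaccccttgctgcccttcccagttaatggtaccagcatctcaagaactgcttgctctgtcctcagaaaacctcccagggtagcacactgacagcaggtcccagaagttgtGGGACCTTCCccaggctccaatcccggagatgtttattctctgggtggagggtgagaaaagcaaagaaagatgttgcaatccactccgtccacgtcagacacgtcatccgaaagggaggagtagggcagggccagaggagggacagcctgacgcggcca
The core began 97 bases before the start in Stat4, 36 bases before it in Trim30a and 75 bases before it in Oas3, and the Isg20 site began 109 bases before it. In Ddx58 it lay just inside the transcript. A match of letters is a description and does not show that a factor bound there.

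Of 16 measured Toll-like receptors and adaptors, 2 rose and none fell, where 2.81% of all genes rose, and the median was 0.14. Lgmn, the endosomal protease that processes Toll-like receptors, rose by 1.25 (SE 0.20, adjusted p = 0.00233) and Tlr12, a receptor for profilin, by 1.23 (SE 0.19, adjusted p = 0.00169). Against untreated replicates 4 and 5 alone these 2 differences were 0.88 and 0.92. Tlr7 had no accepted row. Its relatives Tlr9 and Tlr13 were above all untreated values in every R848 array, at 0.99 and 0.78, without passing the rule (adjusted p = 0.0599 and 0.0343). Tlr9 passed under 7 of 24 alternatives, among them without untreated replicate 4 (1.17) or 5 (1.15), and its difference ranged from 0.31 to 1.45. Myd88, the adaptor, was -0.51 and the chaperone Unc93b1 -0.50. None of 4 measured NF-kB subunits was called, with a list median of 0.66. Relb, the subunit of maturing dendritic cells, was above all untreated values in every R848 array (0.90, adjusted p = 0.0019). Among 16 genes of negative feedback, 2 rose and 1 fell. Traf1, an NF-kB target, rose by 1.28 (SE 0.18, adjusted p = 0.00102).

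Of 23 measured maturation genes, Fscn1, Ccr7 and Socs2 rose and none fell, where 2.81% of all genes rose and 3.94% fell. The list median was 0.52. Fscn1, the actin bundler of dendrites, read 12.19, 11.88 and 11.85 in R848 arrays, against 9.73, 9.29, 10.06, 9.28 and 10.29 in untreated arrays (log2 difference 2.25, SE 0.24, adjusted p = 2.84e-04). Ccr7, which guides cells to T cell zones, read 11.78, 11.76 and 11.99 in R848 arrays, against 10.31, 10.25, 10.72, 9.94 and 10.76 in untreated arrays (log2 difference 1.45, SE 0.19, adjusted p = 7.69e-04). The groups did not overlap for either gene, and both were already well expressed in untreated cells. The measured co-stimulatory ligands of this list and the receptor Cd40 were not called. The ligand Icosl was above all untreated values in every R848 array by less than 2-fold (0.90, adjusted p = 0.0334). Cd86 was 8.34 to 9.14 in R848 arrays, against 8.88 to 9.64 in untreated arrays, a difference of -0.57 (adjusted p = 0.0949). Cd80 differed by -0.35 and Cd40 by 0.27, with overlapping groups, while Cd83 (0.70) and the checkpoint ligand Cd274 (0.52) were higher in every R848 array by less than 2-fold (adjusted p = 0.00364 and 0.00344).

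For antigen presentation by class I, 2 of 15 measured genes rose and none fell, where 2.81% of all genes rose and 3.94% fell. The class I median was 0.33. Tapbpl, a peptide editor, rose by 1.78 (SE 0.20, adjusted p = 3.35e-04) and Tap1, a chain of the peptide transporter, by 1.22 (SE 0.15, adjusted p = 5.35e-04). Its partner Tap2 was 0.75 higher and not called. For class II, 3 of 10 fell and none rose, with a median of -0.48. The genes that fell all serve peptide loading. H2-DMa, the exchange catalyst, read 9.73, 9.93 and 9.82 in R848 arrays, against 11.02, 11.01, 10.83, 11.54 and 11.46 in untreated arrays (log2 difference -1.35, SE 0.17, adjusted p = 6.79e-04), and the chains of its inhibitor, H2-Oa and H2-Ob, fell by 1.24 and 1.27. The rows of these 3 genes were not placed by the second alignment. The class II chains H2-Aa (-0.07) and H2-Ab1 (-0.23), and the invariant chain Cd74 (-0.38), did not pass the rule and stayed near the top of the intensity range. H2-Eb1 (-0.58) and Ciita (-0.95) were lower in every R848 array, by less than 2-fold (adjusted p = 0.00503 and 0.00267).

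Of 18 chemokines, 2 rose and 1 fell (median 0.01), and of 21 cytokines none rose and 3 fell (median -0.01), where 6.75% of all genes were called. Ccl5, which attracts T cells, read 12.47, 12.25 and 12.34 in R848 arrays, against 9.58, 9.64, 10.62, 10.94 and 10.87 in untreated arrays (log2 difference 2.02, SE 0.34, adjusted p = 0.00256). All 3 treated values exceeded all untreated ones. Ltb, a lymphotoxin chain needed for patch organisation, read 8.71, 6.62 and 6.51 in R848 arrays, against 9.82, 9.41, 9.57, 10.36 and 10.05 in untreated arrays (log2 difference -2.56, SE 0.47, adjusted p = 0.00414), and R848 replicate 1 lay above the other treated arrays. Il18 fell by 1.56 (SE 0.17) and Il22ra2, the soluble inhibitor of interleukin-22, by 1.36 (SE 0.12). The classic products of stimulated dendritic cells were not called at 9 h. Il6 was 7.82, 6.62 and 7.28 in R848 arrays, against 6.57, 5.86, 7.46, 5.61 and 6.34 in untreated arrays (0.87, adjusted p = 0.142), and passed the rule only without untreated replicate 3 (1.14). Il12b differed by 0.20, Tnf by -0.51, Il1b by -0.20 and Il10 by 0.66 (adjusted p = 0.757, 0.236, 0.123 and 0.0161). Il10 was near the bottom of the intensity range in both groups.

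Of 19 cytokine receptors, 1 rose (Il7r) and 4 fell: the macrophage growth factor receptor Csf1r by 1.84, the TNF receptor Tnfrsf1a by 1.73, Il6ra by 1.52 and Il17ra by 1.31 (adjusted p = 4.12e-05, 1.50e-04, 0.00456 and 0.00755). Of 18 receptors for migration, 3 rose and 3 fell, where 2.81% of all genes rose and 3.94% fell. S1pr1, which guides cells toward lymph, read 6.50, 6.89 and 7.45 in R848 arrays, against 4.98, 4.50, 5.08, 4.26 and 4.53 in untreated arrays (log2 difference 2.28, SE 0.25, adjusted p = 3.07e-04). Cxcr5, which guides cells to follicles and marks B cells, rose by 1.93 (SE 0.26, adjusted p = 9.51e-04). Ccr1, an inflammatory chemokine receptor, read 6.19, 7.15 and 6.76 in R848 arrays, against 8.34, 8.43, 8.65, 9.04 and 8.77 in untreated arrays (log2 difference -1.95, SE 0.23, adjusted p = 4.30e-04).

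Several genes that mark CD11b+ cDC fell after R848. Of 19 measured genes of this signature, 5 fell and 2 rose, and the median was -0.68. Cd209a, a homologue of the pathogen lectin DC-SIGN, read 3.95, 4.29 and 4.16 in R848 arrays, against 6.44, 6.93, 8.02, 7.89 and 7.96 in untreated arrays (log2 difference -3.31, SE 0.36, adjusted p = 3.28e-04). All treated values were close to those in R848-treated CD8a+ cDC, 3.81 to 4.10. The galactose lectin Mgl2 fell by 2.23, the inhibitory receptor Cd300a fell by 2.32. Outside this signature, the DAP12-coupled lectin Clec5a fell by 2.13. Against the signature, Tmem176a, a membrane channel protein, rose by 1.30 (SE 0.28, adjusted p = 0.00849). Fcgr2b, the inhibitory Fc receptor that B cells also carry, was 1.34 (adjusted p = 0.0329), a call that leaving out any 1 array except R848 replicates 1 and 3 ended, with 0.70 without R848 replicate 2. Sirpa was lower in every R848 array (-0.70, adjusted p = 0.0161) by less than 2-fold. The CD8a+ cDC signature gave 2 rises and 2 falls among 14 genes, where 2.81% of all genes rose and 3.94% fell. Its median was 0.01, and Xcr1 differed by 0.03. Its largest fall was Itgae, described below.

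Transcription factors of dendritic cells moved both ways, with 4 of 25 up, 4 down and a median of 0.47. Prdm1 (Blimp-1) rose by 2.12, Stat4, which relays interleukin-12 and interferon, by 1.84, Spib, a factor of plasmacytoid and B cells, by 1.80, and Irf1 by 1.62 (adjusted p = 0.00311, 9.77e-05, 0.00109 and 4.97e-04). Stat4 read 10.35, 10.07 and 10.13 in R848 arrays, against 8.34, 8.09, 8.35, 8.16 and 8.76 in untreated arrays. Klf4, needed for a subset of CD11b+ cDC, fell by 2.00 (SE 0.23), Runx3 by 1.94 (SE 0.12) and Egr1 by 1.85 (SE 0.18). The lineage factors Irf4 (0.53), Irf8 (0.70) and Zeb2 (0.43) were not called.

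Several genes of leukotriene synthesis and response fell. Of 15 measured eicosanoid and annexin genes, 6 fell and 1 rose, with a median of -0.37. This list, like the others, was chosen with earlier results of these data known, so its count is a description. Alox5ap, the protein that hands arachidonic acid to 5-lipoxygenase, read 7.76, 7.41 and 8.06 in R848 arrays, against 10.95, 10.94, 10.68, 11.56 and 11.45 in untreated arrays (log2 difference -3.38, SE 0.22, adjusted p = 3.72e-05). The enzymes that make leukotriene C4 and leukotriene B4, Ltc4s and Lta4h, fell by 2.02 and 1.94, and the leukotriene receptor Cysltr1 by 2.61. Every treated array was below every untreated one for these 4 genes. Ptgs2, the inducible prostaglandin synthase, was 0.22 with overlapping groups (adjusted p = 0.586), and Anxa3 rose by 1.04, or 0.99 without untreated replicate 1.

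**Figure D3:**
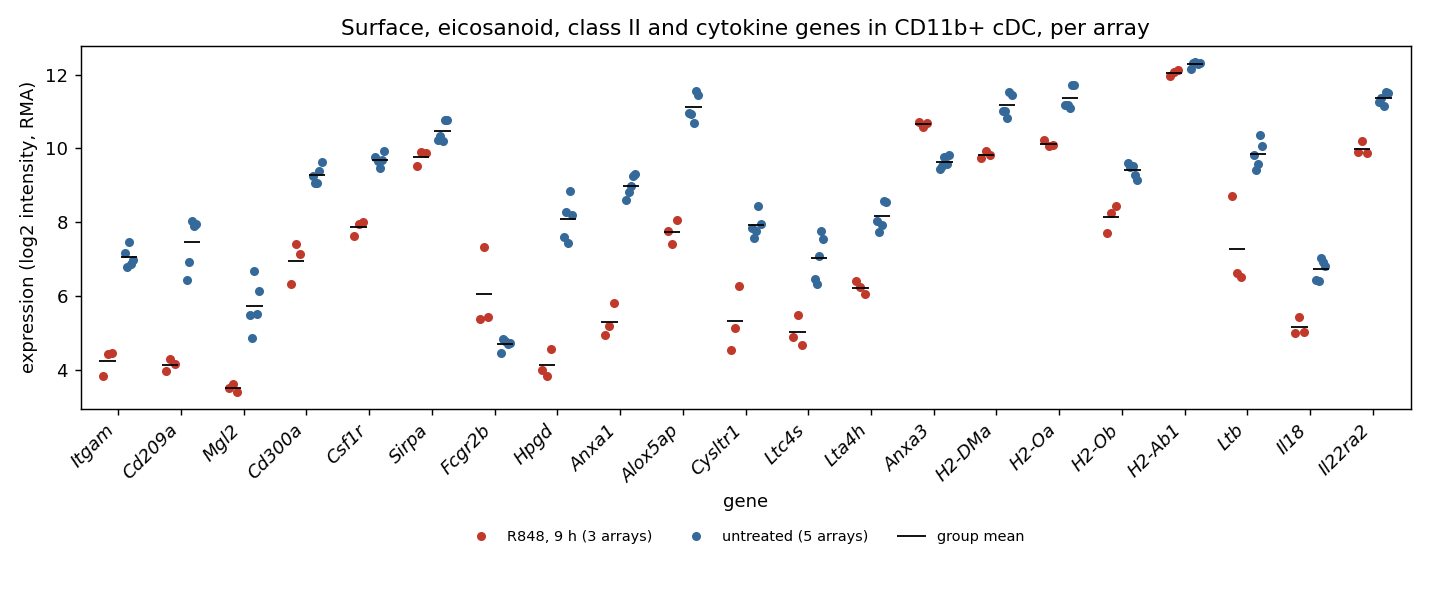
Expression (log2 intensity) of surface, eicosanoid, class II and cytokine genes in each array, R848 left and untreated right, with group means as bars. R848 points lie below all untreated points except for Fcgr2b and Anxa3, which lie above them.

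Among innate effectors, 6 of 25 measured genes fell and 1 rose, with a median of -0.14. The inflammasome sensor Nlrp3 read 4.66, 5.56 and 5.25 in R848 arrays, against 8.13, 7.64, 7.69, 7.41 and 7.58 in untreated arrays (log2 difference -2.53, SE 0.22, adjusted p = 1.08e-04). Its adaptor Pycard fell by 1.17, the NADPH oxidase subunit Ncf4 fell by 2.26 and the lysozyme gene Lyz1 fell by 1.76. The single rise was Ido1, which degrades tryptophan, at 1.21 (adjusted p = 9.18e-04), with low levels of 4.84 to 5.00 in R848 arrays, against 3.26 to 4.06 in untreated arrays.

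Of 11 measured genes of gut imprinting and IgA support, 6 fell and 1, a retinoic acid enzyme, rose, with a median of -1.01. Aldh1a2, the enzyme that makes retinoic acid, read 8.70, 9.06 and 9.02 in R848 arrays, against 6.67, 6.62, 7.37, 6.55 and 6.62 in untreated arrays (log2 difference 2.16, SE 0.19, adjusted p = 1.27e-04). Itgae, the gene of CD103, read 6.89, 7.96 and 7.87 in R848 arrays, against 9.84 to 10.12 in untreated arrays (log2 difference -2.42, SE 0.22, adjusted p = 1.43e-04). These opposite changes were each free of overlap. Gp2, a receptor for fimbriated bacteria, fell by 1.90, Plet1 by 1.24 and the retinoic acid receptor Rara by 1.19. Of 19 adhesion genes, 6 fell and 2 rose, with a median of 0.23. Itgb2, the partner chain of CD11b and CD11c, fell by 1.84, Itgb7, the partner of CD103, by 1.85 and the epithelial cadherin Cdh1 by 2.15. Itgb1 rose by 1.50 and its partner Itga6 by 1.20 (adjusted p = 0.00178 and 1.27e-04).

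Of 17 glycolysis genes, 7 fell and 1 rose, with a median of -0.75. Ldha, lactate dehydrogenase, averaged 8.67 ± 0.11 in R848 arrays and 10.14 ± 0.14 in untreated arrays (SD, n = 3 and 5; log2 difference -1.47, SE 0.11, adjusted p = 5.10e-05). The glucose transporter Slc2a1 fell by 1.64, hexokinase Hk2 by 1.51, Tpi1 by 1.48 and the lactate exporter Slc16a3 by 1.38. Pfkfb3, which makes the activator of phosphofructokinase, rose against these, at 10.71, 10.94 and 11.08 in R848 arrays and 9.24, 9.17, 9.23, 9.22 and 9.60 in untreated arrays (log2 difference 1.62, SE 0.13, adjusted p = 7.46e-05). Of 24 respiratory chain genes, 4 fell and none rose (median -0.38), with Ndufb8 of complex I down by 1.34. Of 16 cholesterol synthesis genes, 2 rose and none fell (median 0.30): Idi1 by 1.69 and Fdft1 by 1.57 (adjusted p = 8.15e-04 and 2.15e-04). Of 34 cell cycle genes, 3 fell and 1 rose (median -0.34), where 3.94% of all genes fell and 2.81% rose. Cdk4 fell by 1.35, Ccnd3 by 1.35 and Mcm7 by 1.31, and the D cyclin Ccnd2 rose by 1.24. Untreated replicates 4 and 5 stood apart in these lists. The respiratory chain list averaged 9.34 to 9.40 in R848 arrays, against 9.56 to 9.68 in untreated replicates 1 to 3 and 10.07 to 10.14 in replicates 4 and 5. The cell cycle list averaged 6.79 to 6.98 in R848 arrays, against 6.93 to 7.08 in untreated replicates 1 to 3 and 7.51 to 7.53 in replicates 4 and 5. The cholesterol list averaged 7.96 to 8.04 in R848 arrays, against 7.42 to 7.53 in untreated replicates 1 to 3 and 7.87 to 7.92 in replicates 4 and 5. Against replicates 1 to 3 alone, 1 respiratory chain gene, 2 cell cycle genes and 5 glycolysis genes fell and 3 cholesterol genes rose. Against replicates 4 and 5 alone, 5 respiratory chain, 8 cell cycle and 8 glycolysis genes fell, and 2 cholesterol genes rose and 1 fell.

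Of 17 immediate early genes, a group that also responds to tissue digestion, 7 fell and 1 rose, with a median of -0.62. Nr4a1 read 5.90, 6.61 and 6.49 in R848 arrays, against 9.73, 9.39, 9.86, 8.64 and 9.30 in untreated arrays, and fell by 3.05 (SE 0.28, adjusted p = 1.33e-04). Ier2 fell by 2.01, Fos by 1.13 and Junb by 1.13. The part of digestion in these values was not tested. Of 23 lysosomal genes, 4 fell and 1 rose (median -0.14), where 3.94% of all genes fell and 2.81% rose. Against untreated replicates 1 to 3 alone, 2 fell and 2 rose. Ctsa, a protective lysosomal protease, fell by 1.22 and the acid lipase Lipa by 1.19. Among 14 uptake receptors, 2 fell and 1 rose (median 0.11). Havcr2 (TIM-3) read 6.88, 7.26 and 7.64 in R848 arrays, against 9.40, 9.57, 9.41, 9.82 and 9.75 in untreated arrays (log2 difference -2.33, SE 0.18, adjusted p = 6.05e-05). Scarb1, the lipoprotein receptor, fell by 1.21, and Axl, a receptor for dying cells that interferon induces, rose by 1.17. Of 18 apoptosis regulators, 2 rose and none fell (median 0.15), among them the inhibitor Birc2 (cIAP1) by 1.92 (SE 0.25, adjusted p = 8.42e-04).

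Markers of other cells moved with treatment. Of 6 measured B cell markers, 4 rose and none fell, with a median of 1.62, and their mean level was 6.51 to 7.20 in R848 arrays, against 5.07 to 5.61 in untreated arrays. Ms4a1 (CD20) read 8.38, 9.30 and 8.30 in R848 arrays, against 5.09, 5.48, 5.89, 6.45 and 6.34 in untreated arrays, Pax5, the B cell master factor, rose by 2.13, Cd79a by 1.90 and Ebf1 by 1.34 (adjusted p = 5.85e-04, 1.70e-04, 6.21e-04 and 1.02e-04). Of 8 plasma cell markers 4 rose, and their mean level was 6.66 to 7.64 in R848 arrays, against 5.75 to 6.70 in untreated arrays. Jchain, the joining chain of IgA, read 9.44 to 11.07 in R848 arrays, against 6.59 to 8.64 in untreated arrays, and was lowest among treated arrays in replicate 1, as was Mzb1, at 7.99, 9.08 and 9.05 in R848 arrays and 6.52, 5.95, 5.91, 7.63 and 6.97 in untreated arrays. Prdm1, Spib and Cxcr5, described above, are shared with these lineages, and the part of B lineage RNA in their rises was not tested. The complement receptor gene Cr2, also of B cells, averaged 4.18 ± 0.49 in R848 arrays and 3.80 ± 0.20 in untreated arrays (SD, n = 3 and 5) and was not called.

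Some T cell and NK or innate lymphoid markers fell. Of 6 T cell markers, 2 fell and none rose (median -0.83), with mean levels of 4.72 to 4.95 in R848 arrays, against 5.72 to 6.29 in untreated arrays. Thy1 read 5.43, 4.97 and 5.45 in R848 arrays, against 7.66, 8.68, 7.09, 8.44 and 8.37 in untreated arrays (log2 difference -2.76, SE 0.34, adjusted p = 6.09e-04). Cd3g, a chain of the T cell receptor complex, differed by -1.66 (adjusted p = 0.0309), a call that ended without any 1 of the R848 replicates or without untreated replicate 3 or 4 (-1.54). Of 9 NK and innate lymphoid markers, 4 fell and 1 rose (median -0.69), with mean levels of 4.54 to 4.79 in R848 arrays, against 5.13 to 5.84 in untreated arrays. The granzymes Gzma and Gzmb fell by 3.26 and 2.31, Nkg7, of cytotoxic granules, by 2.00 and Tbx21, the factor of type 1 lymphocytes that dendritic cells also use, by 1.30, while the receptor Klrk1 rose by 1.53. Untreated replicates 4 and 5 had the highest mean of both lists. Their part in the falls of Ltb and of other genes that lymphocytes share was not tested.

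Epithelial RNA was uneven among untreated arrays. The mean of 14 epithelial markers was 4.25 to 4.41 in R848 arrays, against 4.58 to 6.37 in untreated arrays, and untreated replicate 2 was the highest. Fabp2 read 4.32, 5.93 and 4.77 in R848 arrays, against 8.52, 10.41, 3.50, 4.47 and 4.74 in untreated arrays. Epcam and Cdh1 fell, Epcam by 2.15 (adjusted p = 1.95e-04), and the part of epithelial RNA in these falls was not tested. None of 8 monocyte, 9 mast cell or basophil, 14 stromal or 4 erythroid markers was called, where 6.75% of all genes were called. Of 11 neutrophil markers 1 fell, of 7 plasmacytoid dendritic cell markers 2 rose, Spib and Bst2, and of 14 macrophage markers 4 fell and 2 rose. Apoe, one of these, was 1.82 higher (adjusted p = 0.0151). Its call ended under 4 of 21 alternatives, among them without R848 replicate 2 (1.65) or 3 (1.66).

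**Figure D4:**
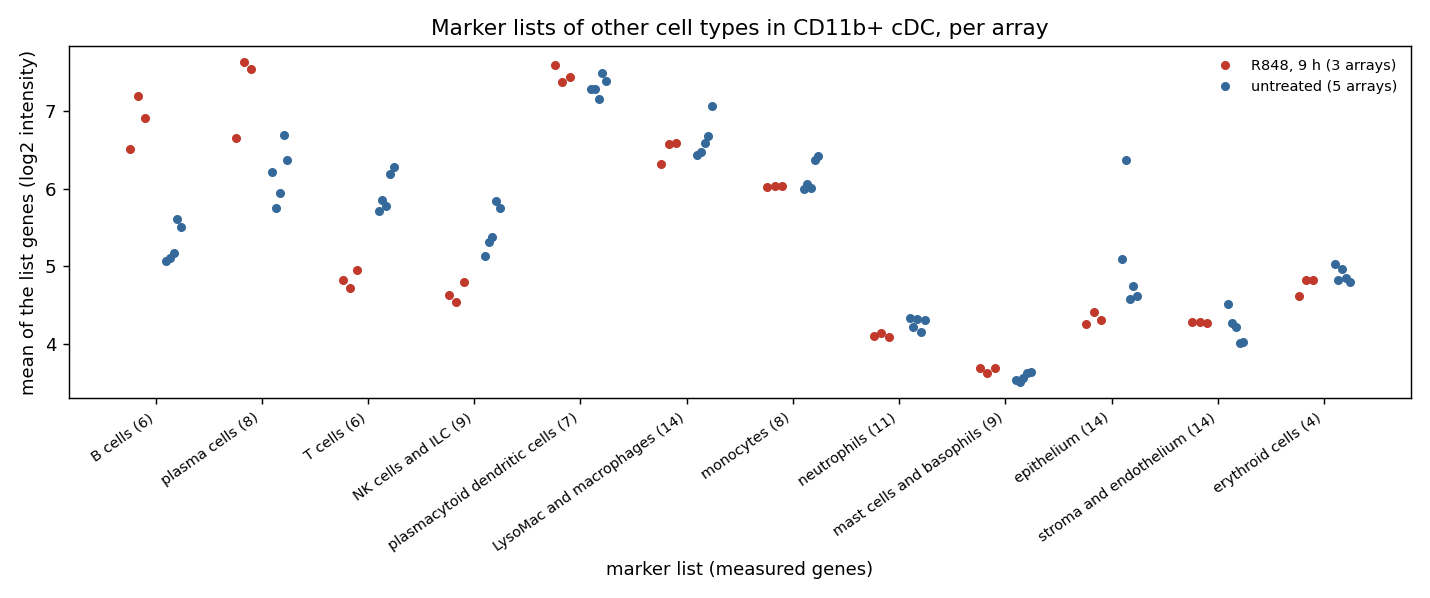
Mean log2 intensity of the measured genes of each marker list in each array, R848 left and untreated right. The B cell list is higher in every R848 array, the plasma cell list is higher in all of them except replicate 1, which overlaps, the T cell and NK lists are lower, and untreated replicate 2 stands alone in the epithelial list at 6.37.

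The response was set against that of CD8a+ cDC, with 5 arrays 9 h after R848 and 3 untreated, for 15844 genes with a row in both. The untreated CD8a+ arrays come in another row order again, and array set and group cannot be told apart there either. The responses differed for 912 genes (5.76%), 523 (3.3%) higher in CD11b+ cDC and 389 (2.46%) lower. With the values as deposited, the split turned to 290 higher and 771 lower. Differences of responses below are CD11b+ minus CD8a+ on the log2 scale. Among genes with a higher response in CD11b+ cDC, Cxcr3, a chemokine receptor of CD8a+ cDC, had the largest difference, 4.67 (SE 0.22, adjusted p = 6.66e-09). It responded by 0.16 in CD11b+ cDC, against -4.51 in CD8a+ cDC. The next by size were Ctla2b (4.47), Heg1 (3.41), Cd180 (3.36), Plpp1 (3.28), Itga8 (3.24), Tlr12 (3.22) and Gpr141b (3.22). For Tlr12 the response was 1.23 in CD11b+ cDC, against -1.99 in CD8a+ cDC. Among genes with a lower response in CD11b+ cDC, Gzma differed by -6.16 (SE 0.77, adjusted p = 1.02e-04), at -3.26 in CD11b+ cDC, against 2.89 in CD8a+ cDC, followed by Cd7 (-4.00), Thy1 (-3.51), Slc2a6 (-3.43), Cd3g (-3.41), Nkg7 (-3.40), Tnfsf9 (-3.10) and Itgam (-2.98). Gzma, Thy1, Cd3g and Nkg7 are among the lymphocyte markers described above, and the part of lymphocyte RNA in these differences was not tested. The co-stimulatory ligand Tnfsf9 was -0.91 in CD11b+ cDC, with overlapping groups, against 2.19 in CD8a+ cDC. In CD11b+ cDC it passed the rule under 3 of 24 alternatives, among them without R848 replicate 1 (-1.22) or untreated replicate 2 (-1.11). Slc2a6, a lysosomal sugar transporter, was -0.75 in CD11b+ cDC, against 2.68 in CD8a+ cDC. Untreated levels of several of these genes were low in one subset, where a fall could hardly be measured. Cxcr3 was at 4.45 to 5.00 in untreated CD11b+ cDC, against 9.00 to 9.32 in untreated CD8a+ cDC, and Plpp1 and Itga8 were at 3.62 to 3.94 and 3.17 to 3.58 in untreated CD11b+ cDC. Itgam was at 6.78 to 7.47 in untreated CD11b+ cDC, against 3.90 to 4.18 in untreated CD8a+ cDC. Nkg7 was at 3.67 to 3.91 in untreated CD8a+ cDC and at 3.84 to 3.94 in R848-treated CD11b+ cDC. Cd3g was at 3.63 to 3.97 and 3.90 to 4.16 in the same groups. Of 16 interferon-stimulated genes with a row in both subsets, the response of 1 was called higher in CD11b+ cDC and of 1 lower, where 5.76% of all genes were called. Trim30a, of an antiviral ubiquitin ligase family, responded by 1.59 in CD11b+ cDC, against 0.28 in CD8a+ cDC (adjusted p = 7.47e-04). Ddx58 responded by 1.47 in CD11b+ cDC, against 2.52 in CD8a+ cDC (adjusted p = 0.0104). That call ended without R848 replicate 1 or untreated replicate 4 or 5 of CD11b+ cDC, or without R848 replicate 2 or untreated replicate 1 of CD8a+ cDC, with a difference of -0.84 in the last case. Usp18 and Herc6 responded by 1.59 and 2.18 in CD11b+ cDC, against 2.58 and 2.92 in CD8a+ cDC, a difference under 2-fold (adjusted p = 8.96e-05 and 0.0026). Irf7 and Xaf1 responded by 3.87 and 2.31 in CD11b+ cDC, against 3.47 and 2.16 in CD8a+ cDC (adjusted p = 0.208 and 0.649).

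**Figure D5:**
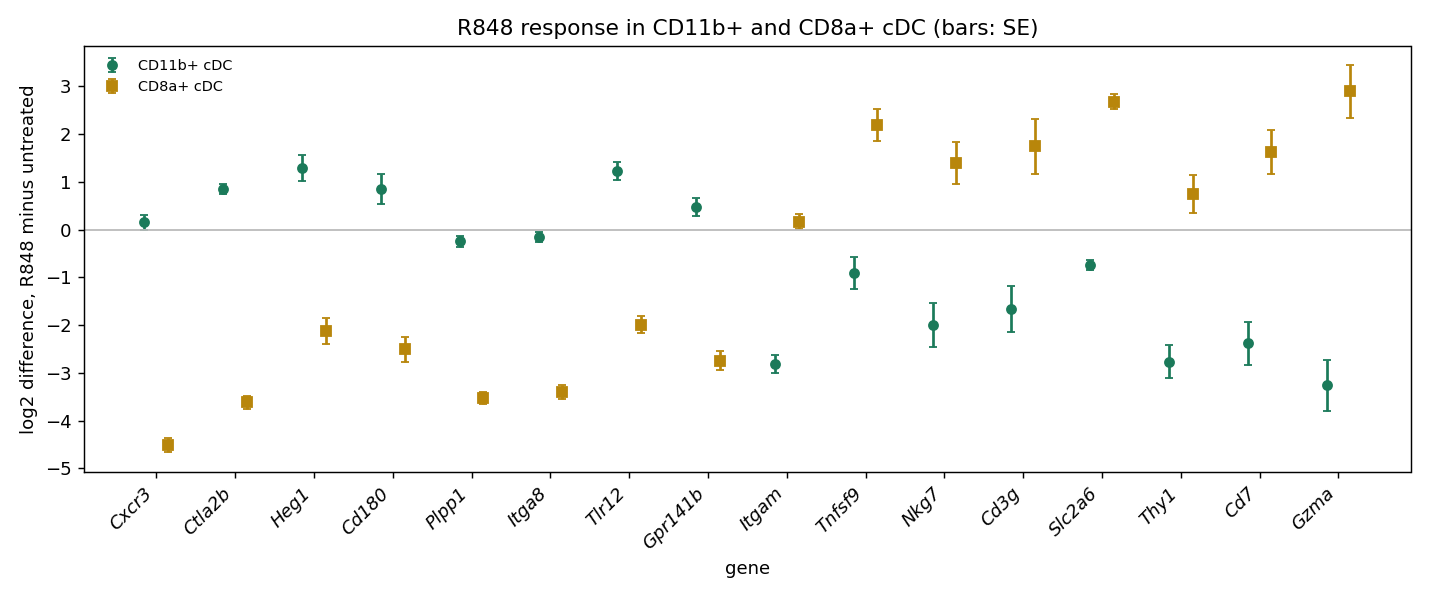
Log2 difference (R848 minus untreated) with its SE in CD11b+ cDC (circles) and CD8a+ cDC (squares) for the 8 genes with the largest difference of responses in each direction. Gzma changes in opposite directions, while Cxcr3 falls in CD8a+ cDC and Itgam in CD11b+ cDC, and in the other subset each was already low without treatment.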

How the data were processed

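RNA of sorted cells was hybridised to Affymetrix Mouse Gene 1.0 ST arrays. The deposited values are log2 intensities, normalized by the authors with RMA in Affymetrix Expression Console 1.4.1, per the submitters' processing notes. The table has 35556 rows, and its arrays fall into sets with different row orders. Row names fit only the R848 arrays. Untreated rows were aligned to them with a pair hidden Markov model (Python 3, numpy and numba) on group mean levels. A row was kept at a posterior of at least 0.9, in a gap-free run of at least 6 rows and with a correlation of at least 0.85 over the 10 rows on either side. With the untreated rows rolled, so that no true partner remains, 773 rows passed. Genes with very large changes, and neighbouring genes that respond together, can lack an accepted row.

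Probe clusters with 1 gene symbol were used, and of several per gene the brightest. Each array was shifted to a common median, and limma 3.58.1 (lmFit and eBayes, R 4.3.3) was fitted to the 3 R848 and 5 untreated arrays, with Benjamini-Hochberg adjustment over all 17765 genes. The steps were tested on simulated data. Groups come from the titles and the design text, which calls the replicates independent. A fit of 16 arrays with an interaction term compared the response with that of CD8a+ cDC. The number of arrays limits the precision. Deviations of same-numbered arrays from their group means correlated at -0.04, 0.04 and -0.02. With 3 arrays per group, whose deviations are tied to each other by the mean, this cannot decide whether the numbers pair the arrays.

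Named genes are the 15 largest rises and falls without overlap, members of pathway and marker lists, and the 8 largest differences of responses in each direction. The members and lists were chosen with earlier results of these data known, so list counts and medians describe these genes and are not tests. Alternatives changed scaling, row acceptance, the cluster rule, a filter on dim genes, the call rule, weights, blocking and the arrays used. The first 6617 rows, which precede the first annotated cluster, were not used.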

Additional observations from a re-analysis of the deposited data

Results flagged for a closer look

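Among 189 groups of values checked for a sample far from the others, 6 had one, and chance alone gives about 1 in 20. In untreated CD11b+ cDC, the lowest Oas1a value, 6.37 in replicate 3, stood below 7.03 to 7.07 in the other 4 arrays. The highest Aldh1a2 value, 7.37 in replicate 3, stood above 6.55 to 6.67. The highest Pfkfb3 value, 9.60 in replicate 5, stood above 9.17 to 9.24. The lowest Ier2 value, 8.95 in replicate 4, stood below 9.55 to 9.76. Of the genes compared with CD8a+ cDC, Gpr141b reached 4.12 in replicate 3, above 3.38 to 3.53. Fabp1 reached 8.77 in replicate 2, above 3.91 to 5.26.

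R848 responses differed between the subsets by a test of the interaction, for the 8 largest differences in each direction (CD11b+ minus CD8a+, log2). They were higher in CD11b+ cDC for Cxcr3 (4.67), Ctla2b (4.47), Heg1 (3.41), Cd180 (3.36), Plpp1 (3.28), Itga8 (3.24), Tlr12 (3.22) and Gpr141b (3.22). They were lower for Gzma (-6.16), Cd7 (-4.00), Thy1 (-3.51), Slc2a6 (-3.43), Cd3g (-3.41), Nkg7 (-3.40), Tnfsf9 (-3.10) and Itgam (-2.98). The part of lymphocyte RNA in the values of Gzma, Thy1, Cd3g and Nkg7 was not tested.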

How the results depend on the processing

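Counts of called genes held within 1.5 times under most alternatives, and no named gene that was called reversed. For the R848 response, the calls rested most on the rule. An adjusted p alone gave 5292 genes, 2800 higher and 2492 lower, and limma's treat with a minimum of 1.5-fold gave 616, with 308 in each direction. Stricter row acceptance, which asks for a posterior of at least 0.98, left 326 higher. Of the 15 largest rises only Socs2 (0.983) reached that posterior, so the others, Irf7 (0.912) among them, were not checked by it. Of the 15 largest falls, Pglyrp1, Alox5ap, Cyp4f16, Ppp1r14a and Cfp reached it. Among the named genes, 107 kept their status, 1 lost its call and the rest had no row. Against untreated replicates 4 and 5 alone, an alternative chosen after seeing the data, 1197 genes were lower, and 576 against replicates 1 to 3 alone; the cause was not tested. Leaving out 1 array at a time gave 1146 to 1241 genes, with 464 to 545 higher and 625 to 765 lower. For the difference of responses, values as deposited gave 290 higher and 771 lower, since the shift of all genes was then -0.21 and not 0.04. Stricter acceptance gave 512, with 296 higher and 216 lower, and an adjusted p alone gave 2875, with 1641 and 1234. Leaving out 1 array gave 794 to 992, with 447 to 588 higher and 334 to 420 lower. With the replicate block, over replicates 1 to 3 of each group, the response had 1199 called genes (632 higher, 567 lower). The difference of responses then had 1081 (661 higher, 420 lower). Of the 1200 calls of the response, 954 remained, and the labels do not say whether the numbers pair the samples. Cyclic loess kept 1035 of the 1200 calls, quantile normalization 1068 and the second alignment 957 of the 968 it could place. Of 131 named genes called, treat ended the call of 28. Of the 173 named genes measured, 130 have an accepted row in the second alignment, and it could not check the others. Those without one include the 3 class II loading genes, Irf7 and 6 others of the interferon list, Nr4a1, Cd180 and Gpr141b.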
